A study of Homo sapiens with 2 samples.

Results

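Annexins and S100 proteins are calcium-binding protein families that often act together, and their genes were compared between SW620 cells with a control lentivirus and SW620 cells made to express CDR1AS. Members were all probes whose gene symbol in the platform's annotation was an annexin (ANXA) or S100 symbol. They were 35 of the 24459 gene probes and stood for 30 of 18638 genes, namely 12 annexin genes with 17 probes and 18 S100 genes with 1 probe each. SW620 is an established line of human colon carcinoma, and CDR1AS is a circular RNA known to bind the microRNA miR-7 at many sites. Each group was 1 array of Cy5-labelled RNA from normally cultured cells, so no difference below has a replicate error, a test or a p-value. The labels do not say whether the cells were a pool or a single clone, or which promoter drives CDR1AS. S100A5 and S100A7 were not analysed here.

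Annexins bind the acidic phospholipids of membranes when calcium rises, through a conserved core, while their differing amino-terminal tails bind partner proteins. S100 proteins are small EF-hand proteins that mostly form dimers and, once calcium is bound, dock onto targets. Several pairs are known: S100A10 with annexin A2 at the plasma membrane, S100A11 with annexin A1, and S100A6 with annexin A11. In the gut epithelium annexins take part in membrane traffic and repair, and some members of both families are also secreted and act on cell surface receptors.

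The largest differences in either family were in ANXA1, S100A2 and S100A14, so the 250 bases before the annotated start of each of these genes are shown together with those of S100A3, the neighbour of S100A2. Sequences and positions are those of RefSeq for GRCh38.p14, each read 5′ to 3′ on the gene's own strand. The windows are chr9:73151615-73151864 on the plus strand for ANXA1 and, on the minus strand, chr1:153565845-153566094 for S100A2, chr1:153549259-153549508 for S100A3 and chr1:153616326-153616575 for S100A14. Capitals mark matches on either strand to 3 motifs, none of which overlapped another. The TATA box was searched as TATAAA. The element bound by AP-1, a dimer of Jun and Fos proteins, was searched as TGANTCA. The GC box, bound by Sp1, was searched as GGGCGG.
ANXA1: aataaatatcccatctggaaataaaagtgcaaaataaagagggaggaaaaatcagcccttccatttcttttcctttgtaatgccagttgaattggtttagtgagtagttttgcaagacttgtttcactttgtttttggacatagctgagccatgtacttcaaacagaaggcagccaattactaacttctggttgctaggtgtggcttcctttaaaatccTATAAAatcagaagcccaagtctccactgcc
S100A2: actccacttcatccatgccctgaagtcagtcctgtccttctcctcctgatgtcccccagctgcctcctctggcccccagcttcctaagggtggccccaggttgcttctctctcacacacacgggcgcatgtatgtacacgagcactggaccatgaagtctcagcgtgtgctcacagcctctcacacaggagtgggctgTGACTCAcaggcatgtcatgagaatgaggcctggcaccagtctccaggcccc
S100A3: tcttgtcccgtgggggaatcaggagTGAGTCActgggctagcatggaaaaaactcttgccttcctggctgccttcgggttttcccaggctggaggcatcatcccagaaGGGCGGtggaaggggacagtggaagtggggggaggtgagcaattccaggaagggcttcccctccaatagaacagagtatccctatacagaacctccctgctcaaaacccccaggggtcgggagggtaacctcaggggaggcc
S100A14: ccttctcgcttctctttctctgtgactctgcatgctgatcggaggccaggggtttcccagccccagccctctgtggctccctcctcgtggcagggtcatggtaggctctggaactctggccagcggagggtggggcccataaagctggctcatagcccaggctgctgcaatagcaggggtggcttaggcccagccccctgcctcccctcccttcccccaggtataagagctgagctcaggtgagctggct
The window of ANXA1 held TATAAA at position -31 from the start. TGANTCA stood at position -52 of S100A2 and at position -225 of S100A3, which also held GGGCGG at position -142, while the S100A14 window held none of these letters. The annotation has another start for S100A2, whose window held none of them either. TATAAA was found in 10.7% of all 35114 such windows and in 37.8% of the 37 windows of the 27 members with an entry. For the AP-1 element the shares were 6.57% and 10.8%. For the GC box they were 42.6% and 37.8%. A match to these letters describes the sequence and is not a measured binding site.

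Among the 27 members that were measured, ANXA1 and S100A2 were at least 2-fold higher on the CDR1AS array and S100A14 was at least 2-fold lower. Of all 16685 measured genes, 0.755% were at least 2-fold higher and 0.575% at least 2-fold lower. A spot was taken as above background if its intensity passed the blank spots' mean plus 2 SD, which was 69.1 with the control virus and 72.1 with CDR1AS. The probe with the highest mean log2 level stood for a gene. All 27 measured members were above the limit on both arrays, and S100A8, S100A12 and S100B were not above it on either. The ratios given are differences of log2 values after background correction with an added constant of 50 and quantile normalization, CDR1AS minus control. The constant compresses the folds of dim genes, so for the genes with the largest ratios values of the authors' deposited table are given as well.

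**Figure D1:**
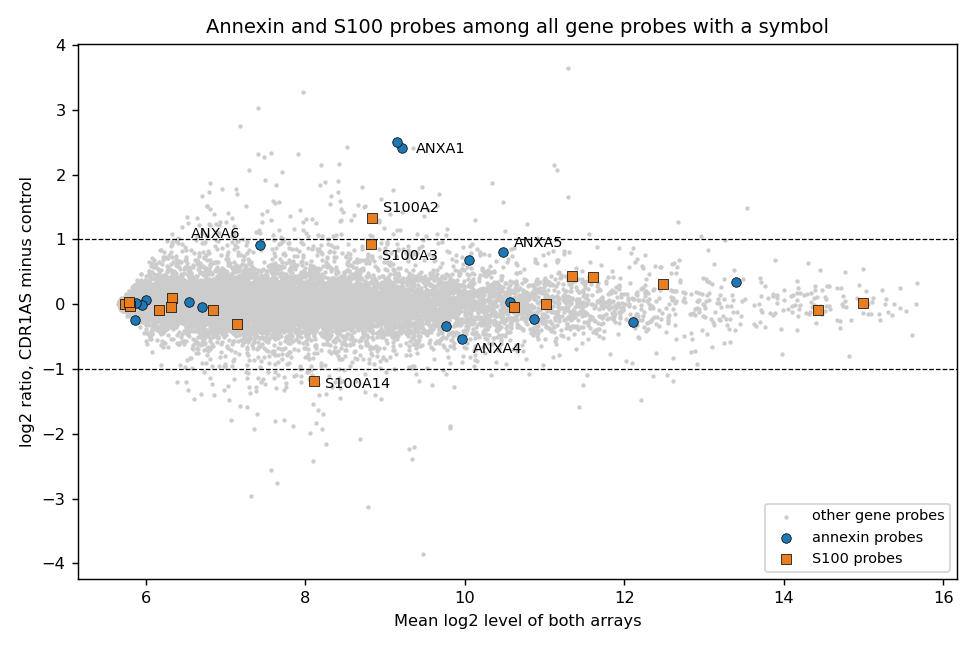
Log2 ratio of the CDR1AS array to the control array (vertical axis) against the mean log2 level of both arrays (horizontal axis) for every gene probe with a symbol, 1 point per probe. Annexin probes (circles) and S100 probes (squares) lie over the other probes (grey), dashed lines mark 2-fold, and both ANXA1 probes (2.41 and 2.50), S100A2 (1.33) and S100A14 (-1.18) lie outside them.

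The medians of both families lay near 0. The 12 annexins had a median log2 ratio of 0.04 (7 above 0 and 5 below), and the 15 measured S100 genes a median of 0.0022 (8 above and 7 below), beside -0.0044 over all measured genes. Ratios of 0.5 or more in size were found in 7 of the 27 members, against 6.57% of measured genes. Part of the members were bright, and among genes over 2 times the background limit on both arrays the counts were 6 of 18 members and 10.3% of 7396 genes. In that brighter set ANXA1, S100A2 and S100A14 made 3 of 18 members past 2-fold in either direction, beside 1.89% of genes. Positive-control spots printed 24 times on an array had log2 SDs from 0.10 to 0.24, and with the largest of these the difference of 2 single spots has an SD of 0.33. By that measure 10 members lay outside 1 SD, 8 of them higher and 2 lower, and 17 lay within it, between -0.30 and 0.31, while 13.5% of all measured genes lay outside it. In the brighter set 9 of 18 members and 21.6% of genes lay outside. This spread is that of spots within an array and holds no variation between cultures. Before normalization 1 positive control averaged 7457 with the control virus and 11002 with CDR1AS. The other averaged 40405 and 43834. The SD of 0.33 leaves out such differences between the arrays. For the 5 annexins with 2 probes the ratios of the probes differed by 0.03 to 0.32, with a median of 0.12, beside a median of 0.11 over 2161 genes with 2 probes above background.

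**Figure D2:**
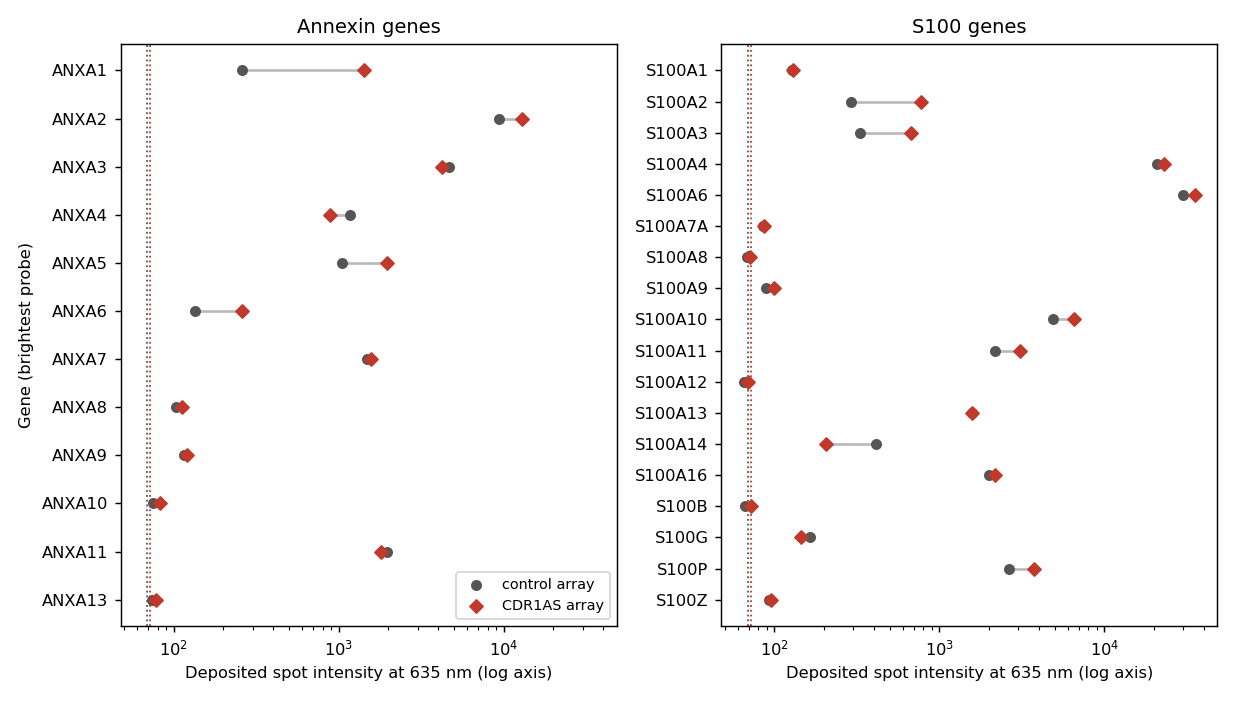
Deposited spot intensity in the red Cy5 channel (horizontal log axis) of each member's brightest probe on the control array (grey circles) and the CDR1AS array (red diamonds), with dotted lines at the background limits of the arrays. Brightness differs between probes for reasons other than transcript level, so a row is read across its own 2 points, and the widest gap is that of ANXA1 (259 and 1413).

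Among the annexins, ANXA1 differed most. ANXA1 (Entrez gene 301, chromosome 9) encodes annexin A1, which binds membranes and, once secreted, dampens inflammation through formyl peptide receptors. Its brightest probe had a spot intensity of 259 with the control virus and 1413 with CDR1AS, and its other probe had 241 and 1405. Each probe was higher on the CDR1AS array. The log2 ratios were 2.41 (5.31-fold) and 2.50 (5.66-fold), and the brightest probe was 6th from the highest of the 16685 measured genes. In the authors' deposited table ANXA1 had 92.0 and 614.8, which is 6.68-fold higher, and 83.5 and 611.1 by its other probe.

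ANXA5 and ANXA6 were also higher, by less than 2-fold in the main setting. ANXA5 encodes annexin A5, the phosphatidylserine-binding protein used as a probe for dying cells. Its intensities were 1048 with the control virus and 1961 with CDR1AS (log2 ratio 0.80), and 814 and 1394 by its other probe (0.68). ANXA6 encodes an annexin with a duplicated core that organizes membranes and endocytic traffic. Its spot was dim, at 135 with the control virus and 261 with CDR1AS, with a log2 ratio of 0.91, and its deposited values of 32.9 and 87.4 were 2.66-fold apart. The direction of ANXA5 was not stable: with the local background subtracted its ratio was -1.31 (other probe -0.09), and that of ANXA6 was 0.03.

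ANXA2, which encodes the annexin that carries S100A10 to the cell surface, had intensities of 9369 and 12942 and a log2 ratio of 0.35. ANXA4, found mainly in epithelia, was lower, at 1167 with the control virus and 881 with CDR1AS (-0.53). Its other probe gave 951 and 820 (-0.34), and with the local background subtracted the probes had opposite directions (-1.33 and 0.74). ANXA3 (4681 and 4215, log2 ratio -0.28) and ANXA11 (1963 and 1791, -0.23) lay below 0 within the spot-to-spot spread. ANXA11 encodes the annexin that binds S100A6 and RNA granules. ANXA7, which encodes the membrane-fusing protein synexin, was nearly level at 1483 and 1563 (0.04). The annexins of narrower tissue range were dim: ANXA8, ANXA9, ANXA10 and ANXA13 had control intensities of 102, 116, 74.5 and 74.0, and log2 ratios of 0.04, -0.04, 0.07 and -0.02. The other probe of ANXA10 was above background on the control array only, at 75.1 and 69.3. ANXA8 has a near-identical copy and ANXA2 has processed pseudogenes, and which of these transcripts the probes detect is not known here.

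Among the S100 genes, S100A2 and S100A3 were higher and S100A14 was lower. S100A2 (Entrez gene 6273) encodes a mainly nuclear S100 protein of epithelia that binds p53. Its intensity was 290 with the control virus and 770.0 with CDR1AS, a log2 ratio of 1.33 or 2.52-fold, 62nd from the highest of all measured genes. S100A3 (Entrez gene 6274), known from hair cuticle and rich in cysteine, had 331 and 670.1, a log2 ratio of 0.93. By the authors' deposited values S100A2 was 3.0-fold and S100A3 2.18-fold higher. With the local background subtracted the log2 ratio of S100A3 was 0.44. S100A14 (Entrez gene 57402), an S100 gene of epithelial cells, went from 415 to 205 in spot intensity. Its log2 ratio was -1.18, or 2.27-fold lower, 63rd from the lowest of all measured genes, and the deposited values of 166.4 and 61.9 were 2.69-fold apart. The upstream windows of these genes are those printed above.

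S100 genes with bright spots differed less. S100A11, which encodes the partner of annexin A1, had 2173 with the control virus and 3094 with CDR1AS (log2 ratio 0.43). S100P, which encodes a secreted ligand of the receptor RAGE found in many carcinomas, had 2625 and 3764 (0.42). S100A10, which encodes the partner of annexin A2, had 4904 and 6519 (0.31), close to the 0.35 of ANXA2, a difference of 0.035 between their ratios. That closeness ended with the local background subtracted, where S100A10 had 5.09 and ANXA2 1.59. The local background of the S100A10 spot on the control array was 100.3% of its intensity, so subtraction left no signal there. The ratio of ANXA1 exceeded that of S100A11 by 1.98. S100A4, which encodes a myosin-binding protein linked to cell motility and metastasis, had 20726 and 22832, and S100A6, which encodes calcyclin, had 29804 and 35364. Their log2 ratios of -0.09 and 0.02 depended on the scaling of such bright spots: with both arrays scaled to a common median they were 0.09 and 0.20, so the direction of S100A4 turned. S100A13, which encodes a protein that helps export growth factors without a signal peptide (1573 and 1580, log2 ratio -0.04), and S100A16 (2004 and 2177, 0.0022) were level. S100G, which encodes the calbindin of the absorptive gut epithelium, had a dim spot, at 165 and 146 (-0.30).

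The remaining S100 genes were close to background. S100A8 and S100A9 encode the subunits of calprotectin, the neutrophil protein used as a stool marker of gut inflammation, and S100A12 is a related myeloid gene. S100A9 had intensities of 88.7 and 99.7, above the limits (log2 ratio 0.10). S100A8 had 68.3 and 71.5 and S100A12 65.2 and 69.3, both within the limits. S100B, the S100 gene of glia, had 66.4 and 71.9, also within them. S100A7A, a psoriasis-associated gene of skin, had 85.9 and 86.0 (-0.09), S100A1, known from heart muscle, 129 and 130 (-0.10), and S100Z 92.2 and 94.9 (-0.05). The 8 measured members below 2 times the limit on both arrays lay at 1.07 to 1.86 times the limit on the control array, with ratios from -0.10 to 0.10. At such brightness a difference between the arrays would be hard to see, since the constant of 50 is of the size of, or above, what these spots add over the blanks.

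**Figure D3:**
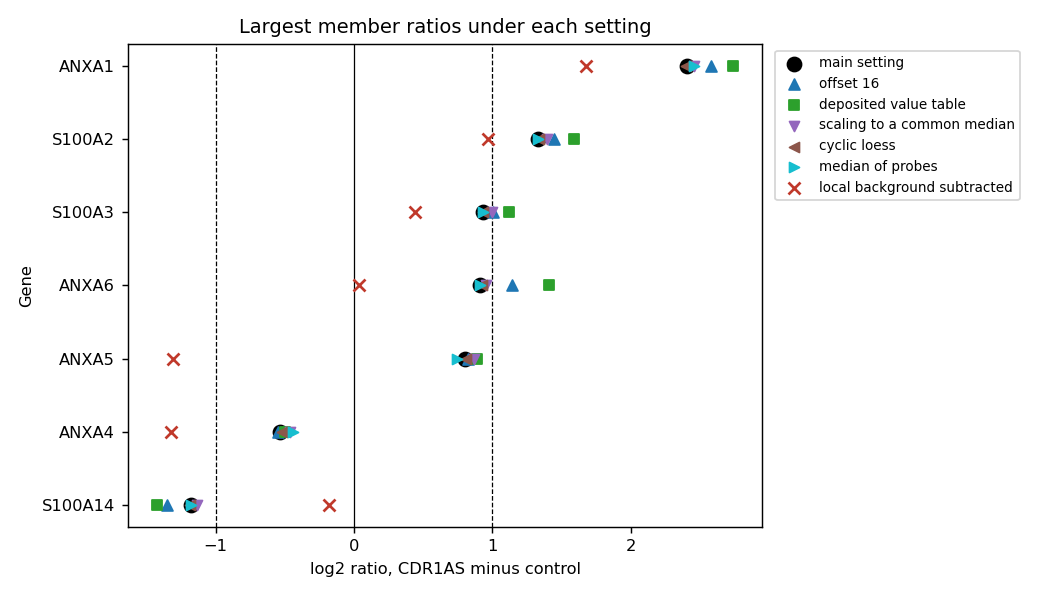
Log2 ratio (horizontal axis) of the 7 members with a ratio of 0.5 or more in size, under the main setting (black circles) and 6 others (coloured marks). Dashed lines mark 2-fold, and the marks with the local background subtracted (crosses) lie apart from the others for several genes, with ANXA5 at -1.31 and S100A14 at -0.18. ANXA6 lies at 0.91 in the main setting and at 1.41 in the authors' deposited table.

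With the local background subtracted, ANXA1 stayed past 2-fold (1.67, other probe 2.52), but S100A2 (0.97) and S100A14 (-0.18) did not. In that setting 4 members were at least 2-fold higher and 6 at least 2-fold lower, beside 4.41% and 3.45% of genes. The sign turned for 9 of 27 members, namely ANXA5, ANXA7, ANXA9, ANXA10, S100A1, S100A4, S100A9, S100A11 and S100G. With a smaller constant of 16, ANXA6 (1.14) and S100A3 (1.0) joined ANXA1 and S100A2, making 4 members higher and 1 lower beside 1.37% and 1.03% of genes. The deposited table held the same 4 genes higher and S100A14 lower, beside 3.35% and 2.27% of genes. The local background column followed the brightness of the spot itself across all 24459 gene probes (Pearson's r of log intensities was 0.977 with the control virus and 0.942 with CDR1AS, across probes, which are not independent replicates). At the member spots it was 21.5% to 105% of the spot intensity with the control virus and 13.7% to 87.6% with CDR1AS. For S100A14 it was 79.7% and 38.4%. It exceeded the spot on the control array for S100A6 (105% and 75.6%) and S100A10 (100.3% and 34.1%).

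On chromosome 1, S100A2 and S100A14 were past 2-fold, S100A3 was close to it, and the measured genes of other families in the stretch were within 2-fold. In the RefSeq order of GRCh38.p14 the S100A genes on the array form a row from S100A10 to S100A1, with the epidermal differentiation genes between S100A11 and S100A9. The last part of that row runs S100A6, S100A4, S100A3, S100A2, S100A16, S100A14, S100A13 and S100A1. Within it S100A3 (0.93) and S100A2 (1.33) lie next to each other, S100A16 (0.0022) follows, and S100A14 (-1.18) comes after it. The 41 measured other genes between the S100A genes and among the 10 annotated genes on each side had a median of -0.02 and a range from -0.44 to 0.16, with 0 at or past 2-fold (1.33% of all measured genes were past it in either direction). The lowest of these was THEM4, a thioesterase gene, and many of the epidermal genes were dim, so their ratios are compressed. Positions of the probes themselves were not used, since no source names the build they were designed on.

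**Figure D4:**
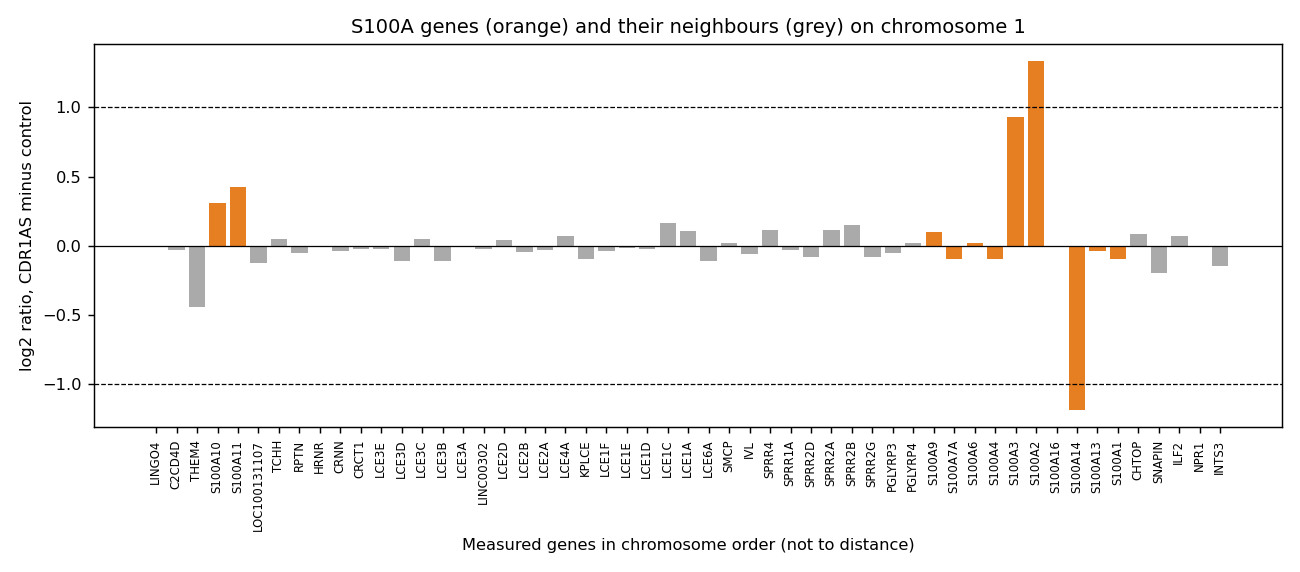
Log2 ratio of the CDR1AS array to the control array (vertical axis, bars from 0) for the measured genes of the chromosome 1 stretch in chromosome order, with S100A genes in orange and other genes in grey. S100A2 (1.33) and S100A14 (-1.18) pass the dashed 2-fold lines, and the 41 other genes lie between -0.44 and 0.16.

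Genes that work with the members were described by lists. In the plasminogen system, which annexin A2 and S100A10 are known to gather at the cell surface, 3 of 7 measured genes were at least 2-fold higher and 0 lower, beside 0.755% of all measured genes. PLAU, which encodes the plasminogen activator urokinase, had 114 with the control virus and 456 with CDR1AS (log2 ratio 2.04, other probe 1.0). PLAUR, its receptor gene, had 230.0 and 503 (1.05), and the protease inhibitor gene SERPINE2 had 101 and 284 (1.52). The remaining genes PLAT (0.07), PLG (-0.07), PLGRKT (-0.31) and ENO1 (0.07) were within 2-fold, and the list's median was 0.07. In the authors' deposited table the log2 ratios were 2.95 for PLAU, 1.34 for PLAUR and 2.55 for SERPINE2. With the local background subtracted PLAU (0.98), PLAUR (0.50) and SERPINE2 (0.99) were within 2-fold, while ENO1 was past it (3.60).

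Of 19 measured binding partners of annexins and S100 proteins, 12 lay above 0 and 7 below it, their median was 0.04 and 0 reached 2-fold in the main setting. AHNAK, which encodes a giant scaffold protein bound by S100A10 and annexin A2, was the highest, at 135 and 272 (log2 ratio 0.97), followed by the calpain gene CAPN2 (0.79) and MYH9 (0.77), whose myosin is a target of S100A4. AHNAK passed 2-fold with a constant of 16 (1.21), with median scaling (1.008) and in the authors' deposited table (1.48). With the local background subtracted CAPN2 had -0.15, MYH9 (3.18), CAPNS1 (1.41) and IQGAP1 (1.06) were past 2-fold higher, and PDCD6 (-1.29) and CACYBP (-1.60) past 2-fold lower. Of 8 measured receptors for secreted members, 3 lay above 0 and 5 below it, and their median was -0.07. FPR1, FPR3 and AGER, which encodes RAGE, were not above background on either array, and FPR2, the main receptor gene for annexin A1, had 109 and 110 (-0.09). The adhesion gene ALCAM, at 146 and 76.1, was the only receptor past 2-fold in the main setting (-1.19). Another of its probes, at 75.5 and 70.8, was above background on the control array only (-0.22). Its remaining probe, at 64.4 and 67.8, was above background on neither array. The ratio of ALCAM was -1.99 with a constant of 16, -3.68 in the authors' deposited table (38.4 and 3.0) and -0.27 with the local background subtracted. MCAM (-0.47) and NPTN (-0.37) came next. With the local background subtracted MCAM had -1.45. EMB, above background on the CDR1AS array only, had 1.24 in the authors' deposited table (1.1 and 2.6).

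Other calcium-binding families also had genes on both sides of 0. Of 29 measured genes for EF-hand sensors and buffers, 16 were above 0 and 13 below (median 0.04). HPCAL1, a neuronal calcium sensor gene, was the only one past 2-fold in the main setting, with 376 and 850.4 (log2 ratio 1.09), the calcium buffer gene CALB1 had 112 and 223 (0.98), and the actin bundler gene PLS3 had 507 and 939 (0.78, other probe 0.65). CALB1 passed 2-fold with a constant of 16 (1.30), with median scaling (1.005) and in the authors' deposited table (1.67). With the local background subtracted 7 genes of the list were past 2-fold, beside 4.41% of all genes higher and 3.45% lower. HPCAL1 (2.10), RCN1 (2.05, against -0.47 in the main setting), LCP1 (1.94), CALU (1.51) and SDF4 (1.43, against -0.20) were higher. CETN3 (-1.75) and PLS3 (-1.09) were lower. Of 23 genes for C2-domain membrane binders, 11 lay above 0 and 12 below it, their median was -0.0060 and 0 passed 2-fold in the main setting. SYT13 stood highest and was above background on the CDR1AS array only, at 66.3 and 114, with a measured ratio of 0.83 in the main setting and 1.61 with a constant of 16. DOC2B was past 2-fold in the authors' deposited table only (-1.29, against -0.27), and SYT1 (-0.43) and CPNE6 (-0.27) were the lowest of the list. The 4 measured genes for the large S100-fused proteins of skin, such as TCHH (0.05), RPTN (-0.05) and CRNN (-0.04), were near background or level, with a median of -0.02. ANXA1 is a known glucocorticoid-induced gene, and of 8 measured genes of that kind 5 were above 0 and 3 below (median 0.13). The 2 past 2-fold were the metallothionein genes MT2A (2.14) and MT1X (1.57, and 0.64 with the local background subtracted), which metals also induce, while PER1 (0.29), TSC22D3 (-0.26), FKBP5 (-0.14) and DUSP1 (0.17) were within it.

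**Figure D5:**
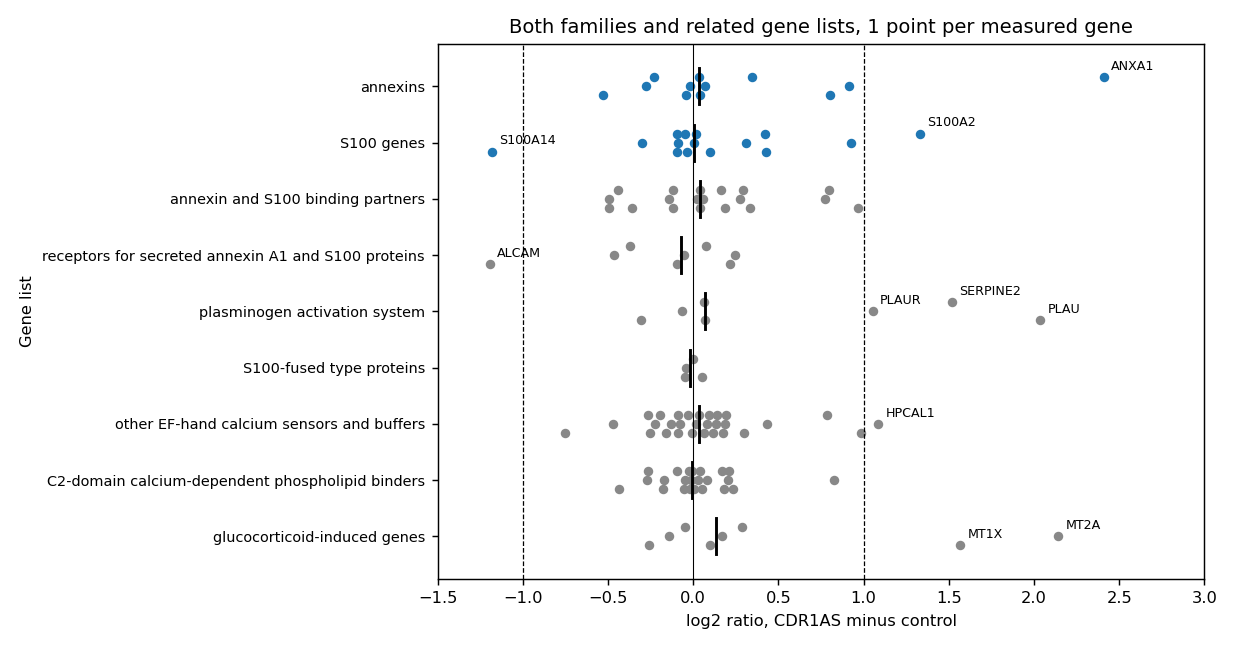
Log2 ratio of the CDR1AS array to the control array (horizontal axis) for the measured genes of both families (blue) and of 7 related lists (grey), 1 point per gene, with a black bar at each list's median and dashed lines at 2-fold. The medians lie between -0.07 and 0.13, and named points are the genes at or past 2-fold.

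Both arrays carried epithelial markers, some of them bright and others near background. Of 11 colon epithelial markers with a probe, 10 were above background on each array. Of all gene probes, 84.4% were above it with the control virus and 87.2% with CDR1AS. By log2 ratio 6 of the 11 were above 0 and 5 below. KRT19 was the highest, at 6186 and 12239 (0.83), and CDX2 the lowest, at 170.3 and 109 (-0.82). EPCAM had 8538 and 6334 and KRT18 56040 and 47565, while CEACAM5 and CDH17, at 69.9 and 69.4 and at 67.9 and 73.3, were at the limit. KRT20 (82.8 and 92.4) and CDX1 (83.2 and 83.4) were dim. The summed intensity of the list over the blanks was 71663 with the control virus and 67186 with CDR1AS, most of it from KRT18. Since S100A8, S100A9 and S100A12 mark myeloid cells, S100A7A keratinocytes and S100B glia, markers of these cells were read as well. Summed intensities were 383 and 367 for 13 myeloid markers, with PTPRC not above background on either array, 596 and 719 for 9 keratinocyte markers, with SPRR1B and SPRR3 not above it, and 235 and 243 for 4 glial markers. They were 411 and 400 for 8 fibroblast markers, with COL1A1, COL1A2 and COL3A1 not above background on either array, and 180.0 and 212 for 7 endothelial markers. Above background on each array were 12 of the 13 myeloid, 7 of the 9 keratinocyte and 3 of the 4 glial markers, beside the shares of all gene probes given above. Fibroblast markers above it numbered 4 with the control virus and 5 with CDR1AS, and endothelial markers 4 and 6. LYZ had 201 and 203, KRT14 385 and 454, and DCN 236 and 243. None of the genes in these marker lists was past 2-fold in the main setting. With a constant of 16 CDX2 had -1.15, and the endothelial gene PECAM1, above background on the CDR1AS array only (66.4 and 98.3), had a measured ratio of 1.21. In the authors' deposited table CDX2 had -1.45. With the local background subtracted KRT19 had 2.02 and EPCAM 2.12, against -0.54 for EPCAM in the main setting (other probe -0.76). In bulk RNA, a change in the share of cells and a change in RNA per cell cannot be told apart.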

How the data were processed

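Total RNA of 2 SW620 cultures was measured on 1 one-colour array each. Per the file headers, the deposited intensity is each spot's median brightness in the Cy5 channel. The scanner used 3 gains, and the way they were joined is not given in the sources. Set against the spot files, the authors' deposited value table was a straight line of the same intensity (largest residual 0.051 with the control virus and 0.0559 with CDR1AS): a level near the blank spots was subtracted and the median of each array placed at 25, with values near the blanks empty. The subtraction and scaling were found from the values, and the table's linear scale and direction match those of the spot files.

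Of 24459 gene probes without a quality flag, 20642 (84.4%) passed the background limit of the control array and 21322 (87.2%) that of the CDR1AS array, with blanks at 65.9 ± 1.60 and 69.5 ± 1.30 (SD, 384 spots). Values were corrected by normexp without local background and an offset of 50, quantile normalized and taken to log2 with limma 3.58.1 in R 4.3.3. A gene above background on 1 array only was counted with its dim side at the lowest value above background. The platform's annotation gave 1 symbol for 21706 probes and none for 2753, and all 30 member genes matched the RefSeq annotation of GRCh38.p14. Precision is limited by there being 1 array per group. The steps were tested on simulated data. Members, lists and alternatives were chosen with earlier results of these data known. Every member was accounted for, and of each related list the genes past 2-fold and the 3 largest ratios were named, with further genes of the lists named after their values were seen.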

Additional observations from a re-analysis of the deposited data

How the results depend on the processing

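ANXA1 was at least 2-fold higher under all 8 alternatives, and S100A2 and S100A14 were past 2-fold under 7 of them, the exception being subtraction of the local background. Not all of these could have differed. A changed filter only keeps or drops a gene and leaves its ratio as it was. The median of probes cannot change a gene with 1 probe, such as S100A2 and S100A14. The count of members at least 2-fold higher was 2 in the main setting and 4 with an offset of 16 (where 1.37% of all measured genes were higher), 4 in the deposited value table (3.35%) and 4 with the local background subtracted (4.41%). With the offset of 16 and in the deposited table the added genes were ANXA6 and S100A3. With the local background subtracted they were ANXA2, S100A10 and S100A6. The count of members at least 2-fold lower was 1, and 6 with the local background subtracted (3.45% of genes), namely ANXA3, ANXA4, ANXA5, ANXA7, ANXA11 and S100A13. That setting also placed the median of the plasminogen list at 0.50 and gave 9 of 27 members the other sign, against 1 of 27 in the deposited table, with median scaling, with cyclic loess and with the median of probes, and 0 with an offset of 16 or without a filter. The cause was not tested. With the stricter filter 18 members were left. The medians of the annexins ranged from -0.04 to 0.08 and those of the S100 genes from 0.00080 to 0.10 over all settings. No paired analysis was possible because each group held 1 array, and none could be left out. Dim spots limit what could be seen: 9 members with a ratio were under 2 times the background limit on at least 1 array.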

Other observations

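A few genes with related names fell outside the rule for members and were chosen after their values were seen. S100PBP, which encodes a binding protein of S100P, had spot intensities of 145 for control and 184 for CDR1AS, a log2 ratio of 0.26, beside 0.42 for S100P itself. ANXA2R, which encodes a proposed receptor for annexin A2, was dim at 83.0 and 87.2 (log2 ratio -0.0098), and the RNA gene ANXA2R-OT1 had 134 and 165 (0.22). S100A7L2, annotated as a pseudogene beside S100A7A, had 64.9 and 67.5 and was not above background on either array.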
